A study of Mus musculus with 6 samples.

Results

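The BCL-2 family of apoptosis regulators was followed on 6 arrays of J774A.1, a macrophage-like mouse cell line from the Balb/c strain. Its 10 members were chosen by name: the prosurvival genes Bcl2, Bcl2l1 and Mcl1, the effectors Bax and Bak1, and the BH3-only genes Bid, Bad, Bcl2l11, Bbc3 and Pmaip1. A member was measured where at least 1 array feature was paired with its symbol alone, and where several were, the feature of highest mean was kept. This gave 9 of the 10 members, among 22180 genes in all; Bax was not analysed here. The control cells had PBS vehicle for 18 h and the treated cells had neuropeptide FF (NPFF, an amidated neuropeptide acting on G-protein-coupled receptors) at 1 nM in PBS for 18 h. Both groups were grown in RPMI-1640 with 10% FCS, each group had 3 biological replicates, and no allele or transgene was named for either. All 6 samples came from 1 cell line, and the labels give no culture dates for the replicates, so p-values reflect only how far these 6 samples spread.

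BCL-2 proteins decide whether the outer mitochondrial membrane is opened, the step that releases cytochrome c and starts the caspase cascade. BAX and BAK1 form the opening, the prosurvival proteins hold them in check, and the BH3-only proteins carry stress signals that neutralise the prosurvival proteins or activate the effectors. In macrophages MCL1, a protein of rapid turnover, is a well-known survival factor. Much of the family is regulated after transcription, which transcript levels do not show.

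On the kept features, none of the 9 measured members differed between NPFF and control beyond the spread between replicates. A dimmer feature of Mcl1, 17407826, described below, was lower on each NPFF array than on each control array. By limma over all genes, 0 of 9 members had an adjusted p under 0.05 (0% of all genes did), 0 of 9 had an unadjusted p under 0.05 (2.51% of all genes did), and 0 of 9 had groups that did not overlap (8.58% of all genes did, 3.67% higher and 4.92% lower in NPFF). Each member's adjusted p was 1.00 by limma, and unadjusted p ran from 0.251 for Bid to 0.883 for Bak1. By sign, 6 members were higher and 3 lower in NPFF, but without control 1 only 2 of 9 were higher. Over all 6 arrays, 6 of the 9 differences were smaller than 0.1 log2. Differences are NPFF minus control in log2 units of quantile-normalized intensity, with 95% intervals from the moderated fit.

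**Figure D1:**
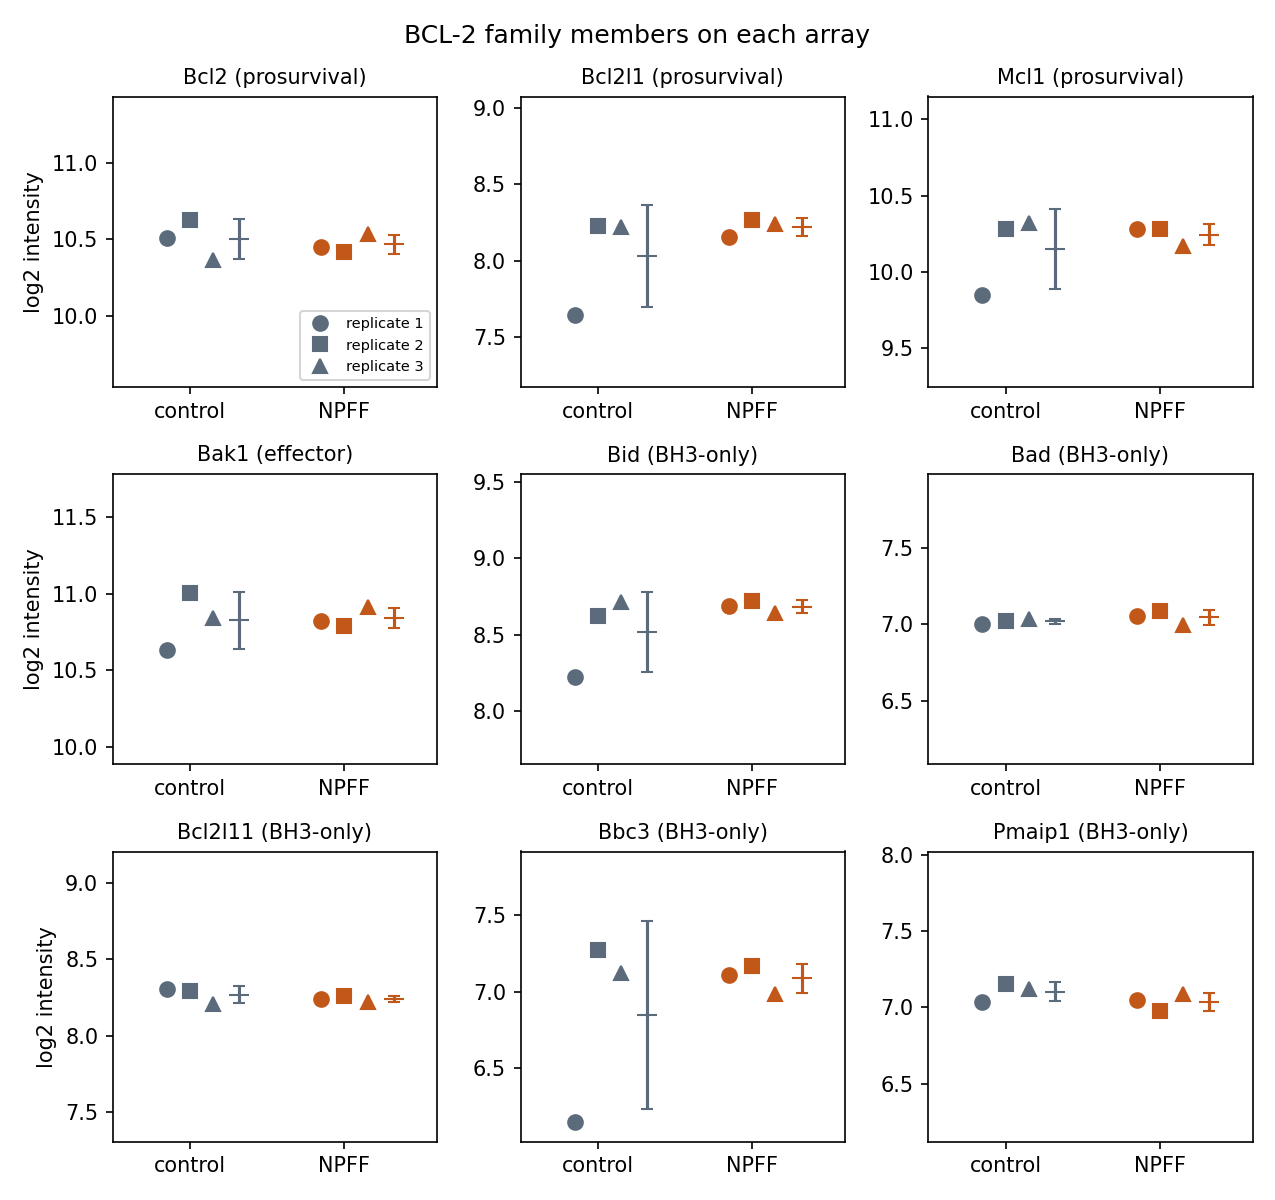
Log2 intensity (vertical axis, each panel spanning the same range) of the 9 measured members on the 3 control and 3 NPFF arrays; symbols mark the replicate number, and the bar beside each group is its mean ± SD (n = 3). The groups overlap in every panel, and control 1 lies below the other 5 arrays for Bcl2l1, Mcl1, Bak1, Bid and Bbc3.

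A single control array carried most of the spread in Bbc3, Bcl2l1, Bid and Mcl1, but not in the other members. Control 1 had the lowest value of the 6 arrays for 5 of 9 members, against 48.9% of all genes. It lay below the mean of the other 5 arrays by at least 0.4 log2 for 4 of 9 members, Bbc3, Bcl2l1, Bid and Mcl1, against 14.1% of all genes. The deviations were -0.99 for Bbc3, -0.58 for Bcl2l1, -0.46 for Bid, -0.42 for Mcl1 and -0.24 for Bak1. For Bbc3, 1.00% of all genes had a deviation as low or lower. Bad, Pmaip1, Bcl2 and Bcl2l11 lay between -0.04 and 0.06 in the same array. Bak1 lay between these and the 4 lowest members, so the deviations were graded, and the cutoff of 0.4 log2 sets where they are divided. The SD was larger in the control group than in the NPFF group for 8 of 9 members, Bad being the exception, and for 80.4% of all genes.

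**Figure D2:**
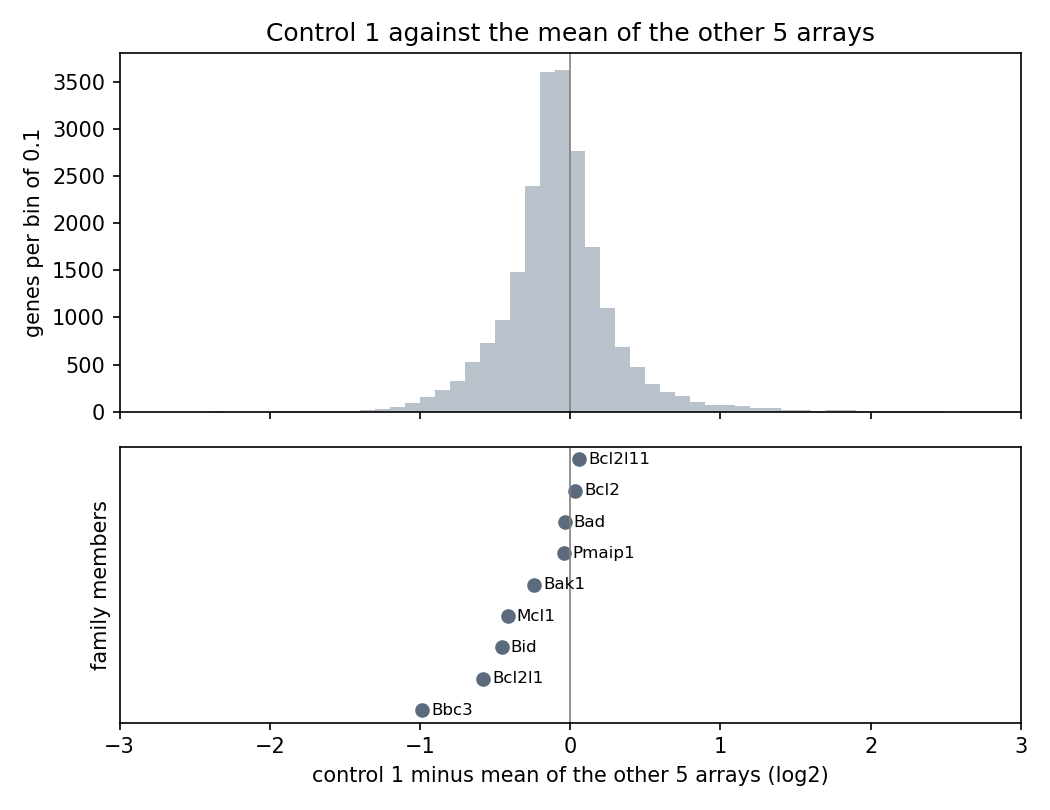
Control 1 minus the mean of the other 5 arrays (log2), as a histogram of all 22180 genes in bins of 0.1 (upper panel; values beyond either end are counted in the end bins) and as 1 point per measured member (lower panel). Bbc3 at -0.99 lies far to the left, and Bad, Pmaip1, Bcl2 and Bcl2l11 lie near 0.

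Control 1 stood apart across the whole array. As deposited, it had the highest median and the narrowest interquartile range, 2.04 against 2.31 to 2.41, and its SD over genes from the mean of the other arrays was 0.37, against 0.11 to 0.21 for the others. The 11 macrophage markers, Cd68, Lyz2, Adgre1 and Csf1r among them, had mean intensities of 9.73 to 13.28, and T cell, B cell, fibroblast, epithelial, endothelial and neutrophil markers lay between 5.25 and 7.29; different probes are not on 1 scale, so these are brightness values only. The mean of the macrophage markers was 11.10 in control 1 and 11.24 to 11.37 in the other arrays, and that of 7 mitochondrially encoded genes was 13.67 in control 1 and 13.44 to 13.54 in the others. The part of these shifts in the family's values was not tested. In RNA from whole cultures, fewer cells carrying a transcript and less of it per cell cannot be told apart.

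Promoter sequence is shown for the 4 members that were lowest in control 1 by the widest margin and for Bcl2 and Bcl2l11, which were not low there, so that both kinds can be set side by side. Each run is the 250 bases before the gene's most upstream start in RefSeq (build GRCm38.p6), 5′ to 3′ on the gene's strand. Capitals mark the GC box, GGGCGG on either strand (CCGCCC when read on the opposite strand), a binding sequence of SP1-type factors. The 6 were picked after their values were seen.
Bbc3, chr7:16309333-16309582, plus strand: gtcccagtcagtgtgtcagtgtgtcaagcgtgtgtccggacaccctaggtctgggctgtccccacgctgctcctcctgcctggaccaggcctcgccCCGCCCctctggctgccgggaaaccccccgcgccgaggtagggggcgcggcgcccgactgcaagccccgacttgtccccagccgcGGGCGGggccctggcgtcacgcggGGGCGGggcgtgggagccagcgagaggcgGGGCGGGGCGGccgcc
Bcl2l1, chr2:152831729-152831978, minus strand: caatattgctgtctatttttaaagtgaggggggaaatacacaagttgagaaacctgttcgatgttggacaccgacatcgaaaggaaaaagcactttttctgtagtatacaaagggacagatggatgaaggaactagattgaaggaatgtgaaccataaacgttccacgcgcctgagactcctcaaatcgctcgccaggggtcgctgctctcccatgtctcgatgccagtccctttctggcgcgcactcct
Bid, chr6:120916825-120917074, minus strand: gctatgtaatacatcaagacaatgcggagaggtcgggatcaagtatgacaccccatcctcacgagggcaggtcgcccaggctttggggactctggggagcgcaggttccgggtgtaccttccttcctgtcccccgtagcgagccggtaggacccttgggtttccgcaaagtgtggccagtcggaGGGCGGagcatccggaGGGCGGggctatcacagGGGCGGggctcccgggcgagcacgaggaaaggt
Mcl1, chr3:95658471-95658720, plus strand: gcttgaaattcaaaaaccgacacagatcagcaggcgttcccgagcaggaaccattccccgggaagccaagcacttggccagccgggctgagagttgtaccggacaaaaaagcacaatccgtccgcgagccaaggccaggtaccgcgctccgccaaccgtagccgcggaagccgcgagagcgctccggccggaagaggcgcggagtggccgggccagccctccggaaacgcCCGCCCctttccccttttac
Bcl2, chr1:106714291-106714540, minus strand: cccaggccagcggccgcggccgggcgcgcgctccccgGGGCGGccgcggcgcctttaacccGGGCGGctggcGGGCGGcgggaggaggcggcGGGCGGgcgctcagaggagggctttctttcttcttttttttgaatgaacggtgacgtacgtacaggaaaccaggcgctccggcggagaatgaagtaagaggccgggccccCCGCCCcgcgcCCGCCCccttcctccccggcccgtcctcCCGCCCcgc
Bcl2l11, chr2:128125788-128126037, plus strand: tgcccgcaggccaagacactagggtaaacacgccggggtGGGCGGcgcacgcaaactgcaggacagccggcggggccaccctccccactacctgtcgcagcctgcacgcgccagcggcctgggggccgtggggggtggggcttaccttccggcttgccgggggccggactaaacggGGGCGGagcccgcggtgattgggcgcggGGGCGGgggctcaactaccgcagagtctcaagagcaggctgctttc

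Promoter sequence was examined for 9 of the 10 members named by the rule, Pmaip1 being the other. Members without an entry or on an excluded chromosome were left out, so this does not show that RefSeq lacks a Pmaip1 entry. The GC box occurred 5 times in the Bbc3 run, the last pair of them overlapping by a base, and 3 times in Bid, 1 time in Mcl1 and 0 times in Bcl2l1, which has 3 annotated starts. Bcl2 had 7 and Bcl2l11 had 3. Bbc3 also has 3 annotated starts and Bcl2l11 has 2, and only the window of the most upstream start was scanned. Of 32817 windows of this length over all genes, 32.7% held a GC box. These windows were taken at every distinct annotated start, not only at the most upstream start of each gene. The GC share was 76.4% for Bbc3, 47.6% for Bcl2l1, 63.6% for Bid, 64.4% for Mcl1, 74.8% for Bcl2 and 72% for Bcl2l11, with a median of 52.4% over all windows. The E-box CACGTG, present in 6.02% of all windows, and the TATA box TATAAA on either strand, present in 12.4%, had 0 matches in these 6 runs. GC boxes and GC share therefore overlapped between the members that were low in control 1 and those that were not. A match is a run of letters, not a measured site.

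Among the prosurvival members, Bcl2, which restrains BAX and BAK1 at mitochondria and the endoplasmic reticulum, read 10.51, 10.63 and 10.36 on control arrays 1, 2 and 3 and 10.45, 10.41 and 10.54 on NPFF arrays 1, 2 and 3 (feature 17226043). The NPFF values lay inside the control range, and control 2 was the highest of all. The difference was -0.03 (SE 0.09, interval -0.24 to 0.17). Bcl2l1, which encodes BCL-XL and by splicing also a shorter proapoptotic form that 1 value per gene cannot separate, read 7.64, 8.22 and 8.22 in control and 8.15, 8.26 and 8.24 in NPFF (feature 17392991). Apart from control 1, its 5 arrays spanned 0.11 log2. The difference of 0.19 (SE 0.16, interval -0.20 to 0.58) was -0.0048 without control 1.

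Mcl1, the fast-turnover prosurvival protein on which many myeloid cells depend, read 9.85, 10.28 and 10.32 in control and 10.28, 10.28 and 10.17 in NPFF (feature 17400418). Its difference of 0.09 (SE 0.13, interval -0.23 to 0.41) became -0.06 without control 1. A dimmer feature paired with Mcl1 alone, 17407826, went the other way. It read 8.16, 7.64 and 7.996 in control and 7.18, 7.61 and 7.21 in NPFF, so that each NPFF array was below each control array, by 0.03 at the closest. Its difference was -0.60 (SE 0.18), and -0.49 without control 1. In limma over all 33794 features its unadjusted p was 0.0150 and its adjusted p 1.00, with 2.82% of features at an unadjusted p under 0.05 and 8.34% without overlap. Which part of the gene each feature covers is not given in the sources used here. Bcl2 also had a dimmer feature, 17216395, with a mean of 5.58 in both groups.

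**Figure D3:**
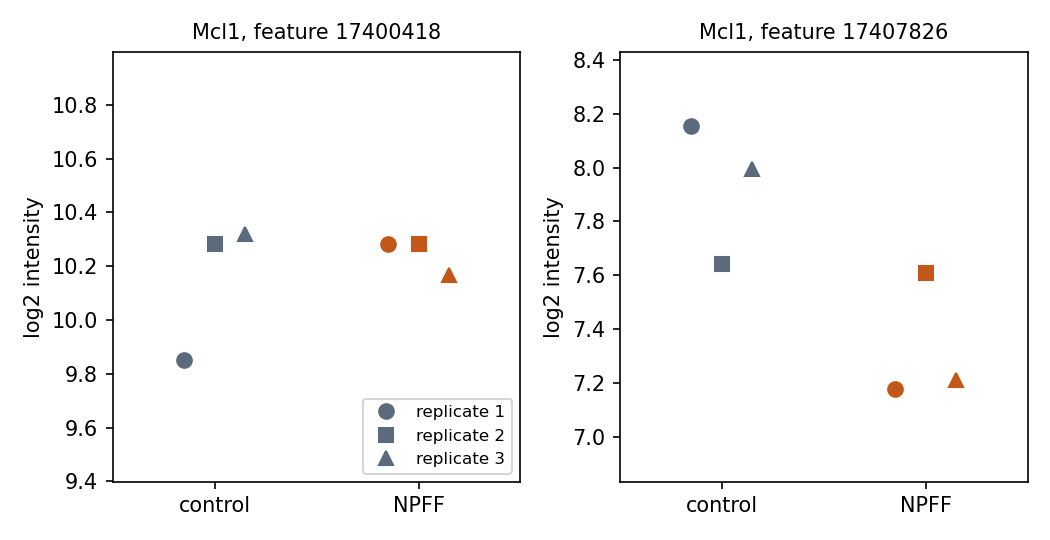
Log2 intensity of the 2 features paired with Mcl1 alone, by group, with symbols for the replicate number; both panels span the same range. The brighter feature (17400418) overlaps between groups with control 1 lowest, and the dimmer one (17407826) is lower on all 3 NPFF arrays, with control 2 at 7.64 and NPFF 2 at 7.61 nearly level.

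Of the effectors, Bak1, which sits in the outer mitochondrial membrane and oligomerises to open it, read 10.64, 11.00 and 10.84 in control and 10.83, 10.79 and 10.91 in NPFF (feature 17342676). The NPFF arrays lay inside the control range. The difference was 0.02 (SE 0.10, interval -0.23 to 0.27), and -0.08 without control 1.

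Among the BH3-only members, Bid, which is cleaved by caspase-8 to link death receptors to mitochondria, read 8.22, 8.62 and 8.71 in control and 8.69, 8.72 and 8.64 in NPFF (feature 17470457). Its difference of 0.17 (SE 0.13, interval -0.15 to 0.48) was 0.02 without control 1, and NPFF 1 and NPFF 3 lay between control 2 and control 3. Bbc3, which encodes PUMA, a p53-inducible activator of cell death, had the widest spread of the family. It read 6.15, 7.28 and 7.12 in control and 7.11, 7.17 and 6.99 in NPFF (feature 17474097). The control mean was 6.85 ± 0.61 (SD, n = 3), and the NPFF mean, 7.09 ± 0.09 (SD, n = 3), had a far smaller SD. The difference of 0.24 (SE 0.29, interval -0.45 to 0.93) turned to -0.11 without control 1, so its sign rested on that array.

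The other BH3-only members varied little on any array. Bcl2l11, which encodes BIM, the activator that mediates death on growth factor loss, read 8.30, 8.29 and 8.21 in control and 8.24, 8.26 and 8.22 in NPFF (feature 17375961). Its difference was -0.03 (SE 0.06, interval -0.17 to 0.12), turning to 0.0011 without further normalization and 0.0035 after median centring. Bad, the sensitizer that survival kinases inactivate by phosphorylation, read 7.004, 7.03 and 7.04 in control and 7.05, 7.09 and 6.996 in NPFF (feature 17356974). The difference was 0.02 (SE 0.06, interval -0.12 to 0.17), and ran from 0.0026 without NPFF 2 to 0.05 without NPFF 3. Pmaip1, which encodes NOXA, the partner that targets MCL1, read 7.03, 7.15 and 7.12 in control and 7.05, 6.97 and 7.09 in NPFF (feature 17351414). Its difference of -0.07 (SE 0.07, interval -0.23 to 0.10) was -0.10 without control 1.

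The intervals show how large a change these arrays could have missed. For Bbc3 the interval ran from 0.733-fold to 1.90-fold. For the other 8 members the lowest bound was 0.846-fold, for Bcl2, and the highest 1.498-fold, for Bcl2l1. Bcl2l11 and Bad were bounded most closely, at 0.887-fold to 1.09-fold and 0.921-fold to 1.12-fold. These bounds apply to 1 member at a time, cover the kept features only and rest on 3 arrays per group. The dimmer Mcl1 feature, 17407826, differed by -0.60 log2, below the lower bound of -0.23 log2 for the kept Mcl1 feature.

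**Figure D4:**
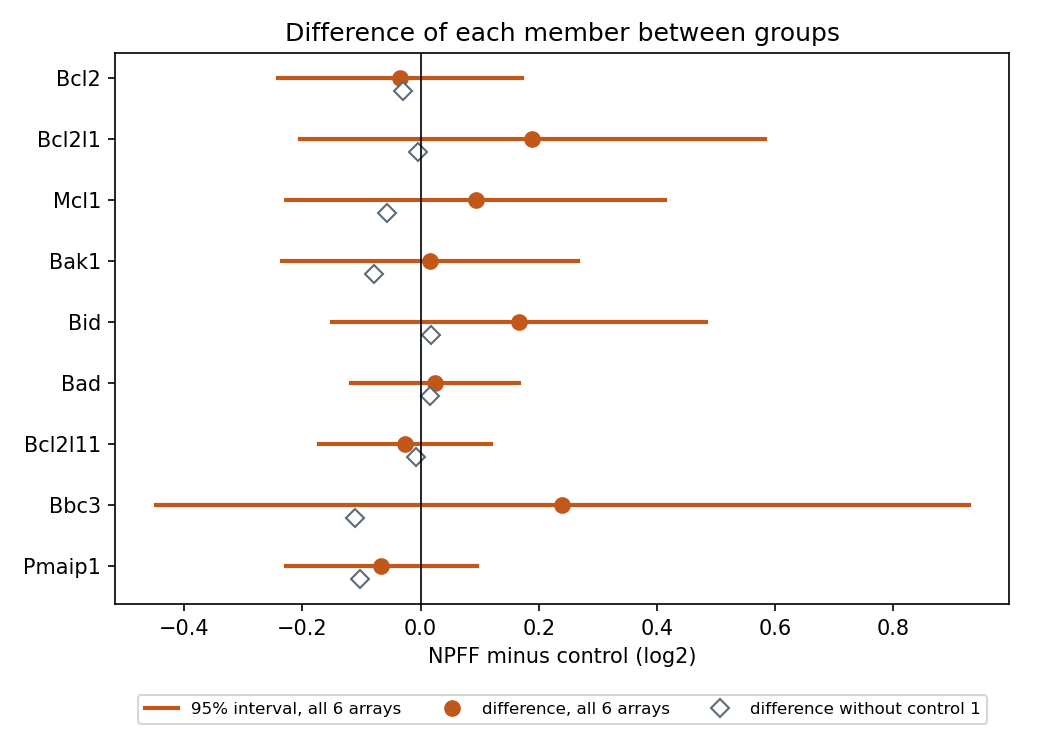
NPFF minus control (log2) for the 9 measured members, as the difference with its 95% interval over all 6 arrays (filled points and lines) and as the difference without control 1 (open diamonds, drawn slightly below). All intervals include 0, and without control 1 the diamonds lie between -0.11 and 0.02.

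Prosurvival and proapoptotic members were then compared on each array by their role means, taken relative to the control mean. The mean of the 3 prosurvival members was -0.23, 0.15 and 0.08 on controls 1, 2 and 3 and 0.07, 0.09 and 0.09 on NPFF 1, 2 and 3. The mean of the 6 measured proapoptotic members was -0.21, 0.13 and 0.08 on the controls and 0.06, 0.07 and 0.04 on the NPFF arrays. Both means were low in control 1 and highest in control 2, and all NPFF arrays lay inside the control range for each. The prosurvival mean differed by 0.08 and the proapoptotic mean by 0.06, and without control 1 these were -0.03 and -0.04. The SD over arrays was 0.20 and 0.18 in control and 0.01 in NPFF for both. As members were chosen with earlier results known, these means carry no p.

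Prosurvival minus proapoptotic, the balance of the family at the transcript level, varied far less than either mean among the controls. Among the NPFF arrays it did not, with an SD of 0.021 against 0.014 for the prosurvival mean and 0.0135 for the proapoptotic mean. The balance was -0.02, 0.02 and 0.00 on the controls and 0.00, 0.02 and 0.04 on the NPFF arrays, relative to the control mean. The SD was 0.02 in each group, and the NPFF mean was 0.02 above control, with 1 of 3 NPFF arrays inside the control range. The difference of 0.02 was 0.014 without control 1, 0.0132 without NPFF 3 and 0.0077 after cyclic loess. When a gene's features were averaged, which brings in the dimmer Mcl1 feature, the balance was -0.09.

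**Figure D5:**
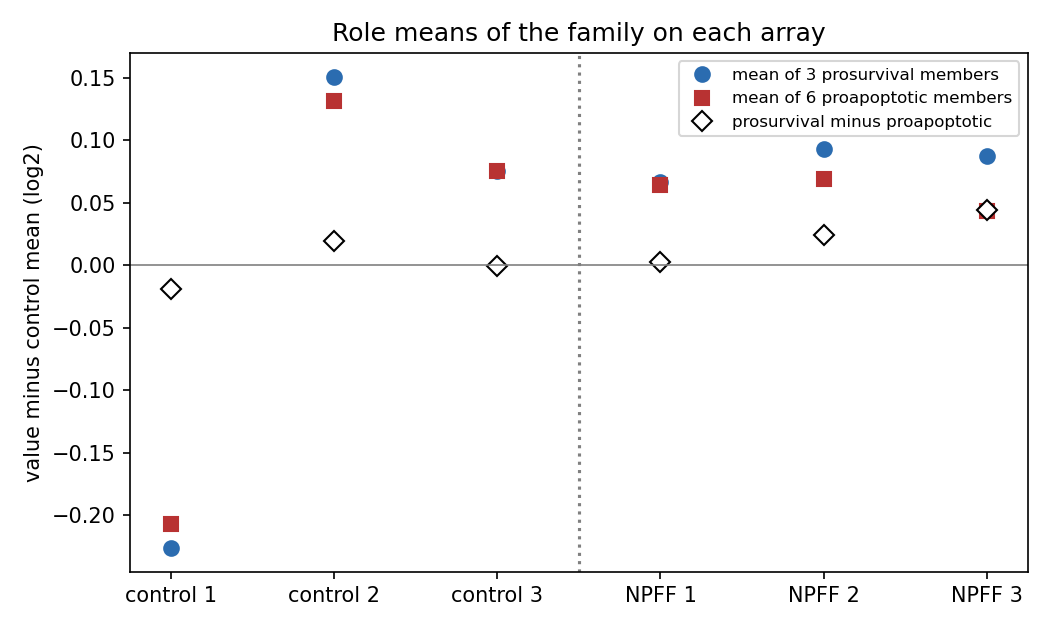
Mean of the 3 prosurvival members (circles), mean of the 6 proapoptotic members (squares) and their difference (diamonds) on each array, in log2 units relative to the mean of the 3 controls. Both means drop in control 1 and lie between 0.04 and 0.09 on the NPFF arrays, and the difference stays between -0.02 and 0.04.

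Bid had the smallest p of the members, and the genes with the closest profile over the 6 arrays were sought by the root mean square difference of gene-centred log2 values. These were Lgals3, which encodes galectin-3, at 0.01, Tmbim1, a transmembrane BAX inhibitor motif protein, at 0.02 and Poldip3 at 0.02. Lgals3 read 8.28, 8.66 and 8.76 in control and 8.71, 8.76 and 8.67 in NPFF. All 3 were low in control 1, as Bid was. They were picked from all 22180 genes for this likeness, which says nothing of shared function or control.

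The pathway around the family was followed in 8 lists of 92 genes, 81 of them measured. Of these, 45 were higher and 36 lower in NPFF, or 55.6% higher against 51.7% of all genes. Without control 1, 19 of the 81 were higher, and 39.1% of all genes, so the majority direction rested on that array. By limma over all genes 0 passed, and 4 had an unadjusted p under 0.05, 4.94% against 2.51% of all genes. The groups did not overlap in 6 genes on the higher side and 8 on the lower side, 17.3% against 8.58% of all genes. Control 1 was the lowest array for 64.2% of the 81, against 48.9% of all genes.

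Among relatives of the members, all 3 measured prosurvival relatives were higher by sign, with a median difference of 0.03 that was -0.03 without control 1. Bcl2l2, which encodes BCL-W, differed by 0.14 (SE 0.12), or -0.0022 without control 1. Bcl2a1a, an A1 gene whose near-identical copies can share a probe's signal, differed by 0.03 (SE 0.13), or -0.06 without control 1. The third, Bcl2l10, was dim and differed by 0.01 (SE 0.07), or -0.03 without control 1. Of 9 measured proapoptotic and BH3-bearing relatives, 6 were higher and 3 lower, with a median of 0.06. Without control 1, 4 of 9 were higher and the median was -0.01. The groups overlapped in all 9. Bcl2l14, a dim relative, differed by 0.09 (SE 0.08), Bik, a BH3-only gene, by 0.11 (SE 0.14) and Bok, an effector relative, by 0.05 (SE 0.08), and without control 1 these were 0.01, -0.03 and 0.02.

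Downstream, 7 of 11 genes of the mitochondrial death pathway were higher and 4 lower, with a median of 0.07 that was -0.05, with 4 higher, without control 1. Aifm1, which encodes the apoptosis-inducing factor of the intermembrane space, read 9.13, 9.25 and 9.22 in control and 9.38, 9.35 and 9.29 in NPFF. Its groups did not overlap, with a difference of 0.14 (SE 0.07), or 0.11 without control 1. Htra2, a protease released on membrane opening, differed by 0.23 (SE 0.17), which was 0.02 without control 1, and the channel gene Vdac2 by 0.11 (SE 0.10), which was 0.03. Of 7 inhibitor of apoptosis genes, 3 were higher and 4 lower, with a median of -0.01; without control 1, 2 were higher and the median was -0.16. Birc3, which encodes cIAP2, a ubiquitin ligase of TNF receptor signalling, read 8.86, 8.73 and 8.66 in control and 8.44, 8.44 and 8.51 in NPFF. Each NPFF array was below each control, with a difference of -0.29 (SE 0.07) and -0.23 without control 1; by limma its unadjusted p was 0.0074 and its adjusted p 1.00. Its relative Birc2 differed by -0.19 (SE 0.10), or -0.17 without control 1. The inflammasome sensor Naip5 differed by -0.27 (SE 0.15), or -0.16 without control 1, and both genes overlapped between groups.

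In the death receptor list, 5 of 9 genes were higher and 4 lower, with a median of 0.03; without control 1, 0 of 9 were higher and the median was -0.08. The receptor Fas read 6.69, 7.005 and 6.88 in control and 6.60, 6.68 and 6.61 in NPFF. Its difference was -0.23 (SE 0.09), with NPFF 2 just below control 1, and was -0.31 without control 1. Casp8, the caspase that cleaves BID, differed by -0.23 (SE 0.12) and by -0.10 without control 1, also with no overlap. The adaptor Tradd differed by 0.17 (SE 0.21), and by -0.08 without control 1. None of these passed limma over all genes, each with an adjusted p of 1.00.

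Upstream, 5 of 12 transcription factors acting on family genes were higher and 7 lower, with a median of -0.02; without control 1, 1 of 12 was higher and the median was -0.08. Myc read 8.77, 8.90 and 8.74 in control and 8.53, 8.65 and 8.71 in NPFF, with a difference of -0.17 (SE 0.08), or -0.19 without control 1. E2f1, a driver of S phase, differed by 0.27 (SE 0.16), or 0.09 without control 1. The p53 relative Trp63 differed by -0.12 (SE 0.07), or -0.07 without control 1. Among 11 p53 targets outside the family, 7 were higher and 4 lower, with a median of 0.08; without control 1, 4 were higher and the median was -0.05. Btg2, an antiproliferative gene, read 8.18, 8.14 and 8.13 in control and 8.30, 8.31 and 8.53 in NPFF, a difference of 0.23 (SE 0.08). The dim gene Perp differed by 0.16 (SE 0.07) and Pidd1, a death domain gene, by 0.13 (SE 0.07). Without control 1 the differences were 0.24 for Btg2, 0.13 for Perp and 0.11 for Pidd1, and none of these genes overlapped between groups. Bbc3 and Pmaip1, which are p53 targets within the family, overlapped between groups. Of 19 kinases, ligases and binding proteins that act on the members, 9 were higher and 10 lower, with a median of -0.01; without control 1, 4 were higher and the median was -0.05. Ywhaq, a 14-3-3 protein of the kind that binds phosphorylated BAD, differed by -0.20 (SE 0.10), or -0.12 without control 1. The stress kinase Mapk8 differed by -0.11 (SE 0.07), or -0.06 without control 1. Gsk3b, a kinase that marks MCL1 for degradation, differed by -0.14 (SE 0.09), or -0.05 without control 1.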

How the data were processed

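Biotin-labelled whole-transcript targets from total RNA were measured on 6 Affymetrix arrays, per the labels' protocols. The deposited values are log2 intensities per feature, read from their range of 4.59 to 14.00; how the authors corrected background and normalized, and on what genome build, is not given in the sources used here. The deposited arrays differed in distribution by up to 0.17 log2, so all 33794 features were quantile-normalized. A platform annotation paired 23521 features with 1 symbol and 1814 with several, and 8459 were unnamed here. The group difference was fitted with limma 3.58.1 in R 4.3.3 (lmFit and eBayes, 4 residual degrees of freedom), two-sided, with Benjamini-Hochberg adjustment over 22180 genes and a threshold of 0.05. All 9 measured members and, the 3 genes of smallest p in each pathway list were named, with 3 nearest profiles for the member of smallest p. Fits were tested on simulated data with noise at each gene's SD in NPFF. The median SD over genes was 0.07 in NPFF and 0.14 in control, and no outlying array was simulated. That test therefore does not cover the wider spread of the controls. The members and lists were chosen with earlier results of these data known. Arrays carry no counting depth; their number limits precision.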

Additional observations from a re-analysis of the deposited data

How the results depend on the processing

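The number of members called by limma was 0 of 9 in all 14 alternatives (other normalizations, features averaged, dim genes removed, array weights, arrays left out), as were the calls among all genes and in the pathway lists, while all genes at an unadjusted p under 0.05 ran from 235 to 2397, against 556. Averaging features moved the balance to -0.0857 and Mcl1 to -0.25, with an unadjusted p of 0.0352 for Mcl1. Bcl2l11 was 0.0011 with values as deposited and 0.0035 with median centring. With gene-by-gene array weights, Bcl2 was 0.029, Mcl1 -0.0446, Bak1 -0.0331, Bcl2l11 0.011 and Bbc3 -0.0318. Without controls 1 and 2, leaving control 3 to vary like the other group, Bcl2 was 0.10, Bcl2l1 -0.0039, Mcl1 -0.0757, Bid -0.0278, Bcl2l11 0.0361 and Bbc3 -0.0335. With single arrays left out, differences ran from -0.10 to 0.03 for Bcl2, -0.0048 to 0.29 for Bcl2l1, -0.0567 to 0.18 for Mcl1, -0.0796 to 0.10 for Bak1, 0.0175 to 0.26 for Bid, 0.0026 to 0.0493 for Bad, -0.0578 to -0.0085 for Bcl2l11, -0.11 to 0.45 for Bbc3 and -0.10 to -0.0351 for Pmaip1; the signs turned without control 1 for Bcl2l1, Mcl1, Bak1 and Bbc3, without control 2 for Bcl2 (0.0289) and without NPFF 3 for Bak1 (-0.02). Deviations of same-numbered arrays correlated at 0.23, 0.45 and -0.33 over genes, and those of differently numbered arrays ran from -0.50 to 0.41. With 3 arrays per group and control 1 standing apart, these correlations cannot decide whether replicate numbers pair the arrays. With the replicate number as a block in limma, 0 members passed and 396 genes had an unadjusted p under 0.05. The cause of these shifts was not tested.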
